A study of Homo sapiens with 8 samples.

Results

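The genes described are chromatin remodellers and the bromodomain, chromodomain and PHD finger proteins that read histone marks. They were chosen by symbol: peaks on genes named CHD, ARID, SMARC, BRD, BAZ, INO80, PHF, CBX or ASXL with a number or letter after the root, and on BPTF, ATRX, UBN1, UBN2 and HIRA. The rule found 218 m6A peaks on 72 genes, of 22626 peaks on 12009 genes in the whole list. A further 13 peaks on 8 genes matched the name but are pseudogenes (BRD7P2, SMARCE1P5, CBX3P9, CBX1P1, PHF5CP, PHF10P1) or antisense or opposite-strand genes (SMARCA5-AS1, BRD3OS) and were left out. The rule also takes genes whose work lies elsewhere, such as PHF5A, a splicing factor subunit, and the readthrough gene INO80B-WBP1.

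The samples are libraries of HCT116, an established human colorectal cancer cell line, with stable knockdown of ALKBH5 (labelled sh_AL1, here shALKBH5) or a control hairpin (sh_NC, here shNC, genotype given as WT). Each arm has 2 libraries of RNA pulled down with an m6A antibody (the IP) and 2 of unselected fragments (the input), 8 in all. Both arms are the same line grown in the same way, and the labels name 1 knockdown construct. The data are 1 peak table for all libraries, with a comparison of both arms made by the authors. It holds no value per library, so the values below have no replicate error, and the depth is unknown. Which arm stands on top of the fold is not stated in any source used here. Folds are therefore given only by their sign, which is not taken to mean gain or loss of m6A on knockdown. Nor is it stated if transcript level was corrected for, so m6A and transcript level cannot be told apart. Of 9 markers of colorectal epithelial cells, 6 carried a peak (CDH1, CDX2, EPCAM, KRT8, KRT18, KRT19), against 1 of 5 fibroblast and 1 of 5 leukocyte markers. ALKBH5 itself had 3 peaks with log2 folds of -1.43, -0.93 and -1.25 per the authors' deposited table, none called (FDR 0.401, 0.465 and 0.325), and its transcript level was not analysed here.

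N6-methyladenosine (m6A) is a methyl mark that a writer complex places on adenosines of messenger RNA, mostly in long internal exons and near stop codons, and that the demethylase ALKBH5 can remove. Chromatin remodellers are ATP-driven machines that slide, eject or exchange nucleosomes, and fall into the SWI/SNF, ISWI, CHD and INO80 families. Bromodomains bind acetylated lysines of histones, while chromodomains and PHD fingers bind methylated or unmodified histone tails. Several of these genes, ARID1A and SMARCA4 among them, are recurrently mutated in cancer.

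The methylated adenosine most often sits in a context such as GGAC, and these letters were searched in the only sequences at hand, the windows from 250 bases before to 50 after annotated gene starts (RefSeq, GRCh38.p14). Of the 72 genes, 53 have such a window. Peaks of BRD2, INO80B, INO80E, PHF8 and SMARCD2 share at least 20 bases with a window of their gene. Short stretches around a GGAC inside the shared bases are shown for the called BRD2 peak and for uncalled peaks of INO80B and SMARCD2, each read 5′ to 3′ on the strand of the gene with the motif in capitals.
BRD2, chr6:32972842-32972871, plus strand: accgaggccacccGGACtttccgcggctga
INO80B, chr2:74455097-74455126, plus strand: ccctttcctcgcaGGACctcatgagtaagc
SMARCD2, chr17:63842714-63842743, minus strand: cagagcacggagtGGACtcgacgcggagcc
GGAC occurs on the gene's strand in 66.3% of all 35116 windows, and it or its reverse complement GTCC in 87.4%. Those shares are for whole windows of 300 bases. The stretches shared with these peaks are shorter, up to 194 bases in SMARCD2 and 24 in INO80E, so they cannot be set against those shares. A match is a description of the letters and marks no methylated base. The BRD2 and SMARCD2 motifs shown lie at -229 and -45 from the start that defines their window, so before it, and that of INO80B at 24. The BRD2 peak is centred 4174 bases from the annotated 5′ end, so its window belongs to a start inside the gene. The SMARCD2 peak is centred before the annotated 5′ end of its gene. Its shared bases hold 3 GGACs, of which the 5′-most is shown. The shared bases of the INO80E and PHF8 peaks hold no GGAC.

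A small number of peaks on these genes differed between shALKBH5 and shNC cells. A peak is called here where the authors' false discovery rate (FDR) for the difference between the arms is under 0.05. Of the 218 peaks, 9 were called (4.13%), against 8.23% of all peaks per the authors' deposited table. Called peaks with a positive log2 fold numbered 3 (1.38%), against 5.74% of all peaks, and those with a negative fold numbered 6 (2.75%), against 2.49%. By gene, 8 of 72 had a called peak (11.1%), against 13.7% of all genes with a peak. Positive called peaks lay on 2 genes (2.78%, against 9.75% of all genes) and negative ones on 6 (8.33%, against 4.36%). The 72 genes carried 3.03 peaks each on average, against 1.88 over all genes, and the part of this in the shares by gene was not tested. The 9 peaks lie on BPTF (2 peaks) and SMARCC1, with positive folds, and on BRD2, BAZ1B, CHD7, CHD6, UBN1 and INO80B-WBP1, with negative folds. Families hold few peaks each, and no test compared their counts of calls below with the 8.23% of all peaks.

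Folds of both signs were about equally frequent on these genes. The median log2 fold of the 218 peaks was 0.06, with quartiles of -0.68 and 0.83, where all peaks had a median of 0.14 and quartiles of -0.52 and 0.79. Positive folds made up 51.8% of the 218 peaks (exact binomial 95% interval 45.0 to 58.6) and 55.3% of all peaks. The range ran from -4.19 on UBN1 to 3.55 on SMARCC1 per the authors' deposited table. In the plot of folds by gene family, the points of most families lie on both sides of 0.

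**Figure D1:**
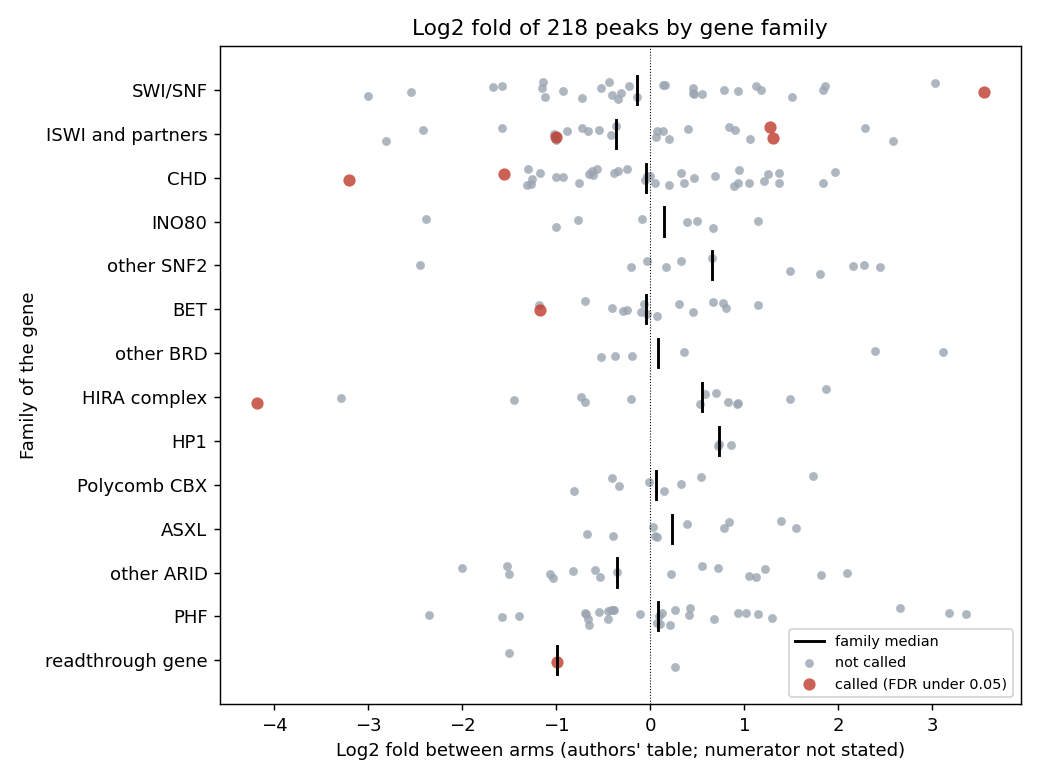
Log2 fold between the arms (x axis, authors' deposited values, numerator not stated) of each of the 218 peaks, by family of the gene (rows). Grey points are uncalled, red points are the 9 called peaks, and black bars are family medians, which run from -0.36 for ISWI and partners to 0.73 for HP1 among the families of more than 1 gene.

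SWI/SNF subunits carried 31 peaks on 11 genes, and 1 peak was called (3.23%, against 8.23% of all peaks). The called peak was on SMARCC1 (ENSG00000173473), a scaffold subunit of the complex. The authors' deposited table gives it a log2 fold of 3.55 (FDR 0.000363), while the other 2 SMARCC1 peaks stood at -0.35 and -0.44. It spans 3 exon blocks of 180 bases in all within 47701641 to 47710726 of chromosome 3 (GRCh38). That peak was itself weak: its enrichment of IP over input was 2.25-fold, and the log10 of the p-value for the peak, which measures how firmly it was found, was -3.57 per the authors' deposited table. Its paralogue SMARCC2 had 3 uncalled peaks, at 3.03, 0.45 and -0.31 per the authors' deposited table, and the peak at 3.03 (FDR 0.119) shares bases with a peak of MYL6 on the other strand.

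The ATPase genes and the ARID subunits of SWI/SNF had no called peak. SMARCA4, the main ATPase gene, had log2 folds of -0.23 and 0.46 per the authors' deposited table (FDR 0.604 and 0.394). SMARCA2, the alternative ATPase, had a single peak at -1.68 (FDR 0.659) per the authors' deposited table. ARID1A, which encodes a DNA-binding subunit of the canonical complex, had 3 peaks within a narrow range of -0.41 to 0.13 per the authors' deposited table. The ARID1A peak at 26779018 to 26780906 of chromosome 1 covered 1889 bases in 1 block with a log10 p of -170, among the strongest of the 218. Its paralogue ARID1B ranged from -1.15 to 1.51 over 3 peaks per the authors' deposited table, with a log10 p between -8.14 and -5.59.

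ARID2, a subunit of the polybromo form of the complex, had 4 of 5 folds negative. They stood at 1.18, -3.00, -1.58, -1.12 and -2.55 along the gene per the authors' deposited table, and the smallest FDR among them was 0.479. Folds of that size were thus listed without a call. All 3 peaks of BRD7, another polybromo subunit, were positive, from 0.45 to 0.93 per the authors' deposited table, but 2 share bases with peaks of ADCY7 on the opposite strand. The BRD7 peak at 0.45 is also centred past the annotated 3′ end of BRD7, so the gene it belongs to is uncertain. BRD9, of the non-canonical complex, stood at 1.12, -1.14 and 0.55 per the authors' deposited table. SMARCE1, another subunit, had 3 of 4 folds positive, up to 1.86 per the authors' deposited table, and all 4 peaks are also listed for an unnamed gene model on the same strand. No peak was listed for SMARCB1, a core subunit.

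ISWI remodellers and their partners held 3 of the 9 called peaks, on 25 peaks of 6 genes. BPTF (ENSG00000171634), the largest subunit of the NURF remodeller and a reader of methylated histone H3, had more peaks than any other of the 72 genes. Its 9 peaks had log2 folds of 1.27, 0.40, 0.83, 2.58, 1.30, 2.28, -1.01, -1.03 and -1.0 from the 5′ to the 3′ end per the authors' deposited table. The 6 positive folds lie upstream of the 3 negative ones. None of the 3 negative folds was called (FDR 0.492, 0.433 and 0.641), and their peaks had a log10 p of -5.37, -6.24 and -4.39. The called peaks are at 67826193 to 67874915 of chromosome 17, with 1291 bases in 4 exon blocks (1.27, FDR 0.0447), and at 67945423 to 67946113, within 1 exon (1.30, FDR 0.000794), per the authors' deposited table. Both were well enriched, at 24-fold and 16.0-fold per the authors' deposited table. The larger folds of 2.58 and 2.28 per the authors' deposited table had FDRs of 0.292 and 0.0759 and weaker peaks, with a log10 p of -5.82 and -5.03. The longest of the 218 peaks, 2401 bases in 2 blocks, is the BPTF peak at 0.83 (FDR 0.146) per the authors' deposited table.

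BAZ1B (ENSG00000009954), a bromodomain partner of ISWI in a complex that acts at replication sites, had 1 called peak of 2. It covered 1676 bases in 2 blocks within 73470475 to 73478534 of chromosome 7, with a log2 fold of -1.01 (FDR 0.0102) per the authors' deposited table. The other BAZ1B peak, nearer to the 3′ end, stood at -0.89 (FDR 0.48) per the authors' deposited table, so both folds have the same sign. BAZ1A, the partner of ISWI in the ACF complex, ranged from -2.81 to 1.06 over 4 peaks, and BAZ2A, of the nucleolar remodelling complex, from -0.73 to 0.90 over 6 peaks, per the authors' deposited table. The BAZ1A peak at -2.81 is centred before the annotated 5′ end and shares bases with a peak of an unnamed gene model on the other strand. SMARCA5, the ISWI ATPase gene, had a single peak at -2.42 (FDR 0.0955) per the authors' deposited table. BAZ2B had 3 uncalled peaks, between -1.58 and 0.07 per the authors' deposited table.

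The CHD genes, whose proteins join chromodomains to an ATPase, carried 36 peaks on 9 genes. Of these peaks 2 were called (5.56%, against 8.23% of all peaks), both negative. CHD7 (ENSG00000171316), which is mutated in CHARGE syndrome, had 7 peaks on chromosome 8. Their log2 folds were -0.05, 0.20, 1.84, 1.37, -0.35, -3.21 and -1.27 from the 5′ to the 3′ end per the authors' deposited table. The called one, at 60856552 to 60856882, lies in 1 block 11312 bases before the annotated 3′ end (-3.21, FDR 0.0331, enrichment 13.5-fold, per the authors' deposited table). The neighbouring peaks 3′ and 5′ of it, at 51.2-fold and 34.3-fold the most enriched of CHD7, were not called (FDR 0.352 and 0.665 per the authors' deposited table). CHD6 (ENSG00000124177) had 1 called peak of 4, in 4 blocks within 41514911 to 41564021 of chromosome 20, at -1.56 (FDR 0.0309) per the authors' deposited table. The other CHD6 folds were -0.39, 0.32 and -1.31 per the authors' deposited table.

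CHD4, the ATPase gene of the NuRD deacetylase complex, had 6 uncalled peaks between -0.76 and 0.93 per the authors' deposited table. Of the CHD4 peaks, 5 are also listed for an unnamed gene model on the same strand. CHD3, its paralogue, had 1 peak near the 3′ end at 0.94 (FDR 0.671) per the authors' deposited table. CHD8, a regulator of β-catenin targets, had 4 of 5 folds positive, from 0.46 to 1.96, with 1 at -0.57, per the authors' deposited table, and its smallest FDR was 0.172. One CHD1 peak, 900 bases long, was enriched 118-fold with a log2 fold of 0.04 (FDR 0.678) per the authors' deposited table. CHD2, CHD5 and CHD9 had 4, 1 and 4 uncalled peaks, between -1.30 and 1.37 per the authors' deposited table.

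INO80 complex genes carried 8 peaks on 5 genes, none called. INO80, the ATPase gene, had 1 peak at -0.77 (FDR 0.668), and the 2 INO80B peaks stood at -0.09 and -2.39, per the authors' deposited table. INO80C, INO80D and INO80E had folds between -1.0 and 1.14 per the authors' deposited table. The peak at -1.0, on INO80E, is centred before the annotated 5′ end and shares bases with a peak of HIRIP3 on the other strand. The readthrough gene INO80B-WBP1 (ENSG00000274049) had a called peak at -1.0 (FDR 4.79e-05) per the authors' deposited table. That call lies at 74460524 to 74460884 of chromosome 2, where a WBP1 peak shares its bases (-0.94, FDR 0.000158 per the authors' deposited table), and no INO80B peak lies there. Without the readthrough gene, 8 peaks on 7 genes were called.

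Among the other SNF2-type ATPases, 8 of 11 folds were positive and none was called. ATRX, which deposits histones at repeats and telomeres together with DAXX, had 5 peaks within 101.68 to 104.23 kb of its 5′ end. Their log2 folds were 2.15, -2.45, 0.32, 2.44 and 1.80 in that order per the authors' deposited table, with no FDR under 0.257. The negative ATRX peak thus lies between positive ones. SMARCAD1, a remodeller in DNA end resection, had folds of 2.27, 1.49 and -0.04 per the authors' deposited table. SMARCAL1, which remodels stalled replication forks, stood between -0.21 and 0.65 per the authors' deposited table.

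The BET genes, whose proteins carry paired bromodomains and recruit the transcription machinery to acetylated chromatin, had 1 call. That was 1 of 16 peaks (6.25%, against 8.23% of all peaks). BRD2 (ENSG00000204256) had 8 peaks, with log2 folds of -0.29, -1.18, 0.45, -0.10, -0.25, 0.07, 0.81 and 0.66 from the 5′ to the 3′ end per the authors' deposited table. The called BRD2 peak, at 32972588 to 32973104 of chromosome 6 in 2 blocks of 361 bases, is the one whose sequence is printed above (-1.18, FDR 0.00012, enrichment 5.10-fold, per the authors' deposited table). Its bases are also listed as a peak of an unnamed gene model on the other strand, and no source used here says whether the libraries keep strand. The strongest BRD2 peak, with a log10 p of -335, stood at -0.25 (FDR 0.249) per the authors' deposited table. The BRD2 peak at 0.81 (FDR 0.0562) per the authors' deposited table had the smallest FDR of all uncalled peaks on these genes.

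BRD3 had 4 uncalled peaks between -0.69 and 1.14 per the authors' deposited table, and 1 of them shares bases with BRD3OS. Of the other bromodomain genes, BRD1, a scaffold of acetyltransferase complexes, had 5 peaks at -0.20, -0.53, 3.11, -0.38 and 2.39 per the authors' deposited table. The BRD1 fold of 3.11 (FDR 0.145) is among the 3 largest uncalled positive folds, and it lies on a peak with a log10 p of -4.53 per the authors' deposited table. BRD8, of the TIP60 acetyltransferase complex, had 1 peak at 0.36 (FDR 0.628) per the authors' deposited table.

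The HIRA complex is a chaperone that deposits a replacement variant of histone H3 outside replication. Its 3 genes had 14 peaks and 1 call (7.14%, against 8.23% of all peaks). UBN1 (ENSG00000118900), its ubinuclein subunit, had folds of -4.19, -3.29, -0.21, 0.70, 0.52, 0.93, -0.73 and 1.48 from the 5′ to the 3′ end per the authors' deposited table. The called peak, at 4852881 to 4853150 of chromosome 16, had the most negative fold of the 218 peaks (-4.19, FDR 0.00832), on a weak peak with a log10 p of -4.26 per the authors' deposited table. The next UBN1 peak, at -3.29 (FDR 0.158) per the authors' deposited table, was weaker still, with a log10 p of -2.99. A UBN1 peak at 4874262 to 4874741 had the highest enrichment of the 218, 135-fold, with a fold between the arms of 0.52 (FDR 0.585) per the authors' deposited table. UBN2, its paralogue, had 5 uncalled peaks between -1.45 and 1.87, and HIRA had 1 peak at 0.92 (FDR 0.388), per the authors' deposited table.

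**Figure D2:**
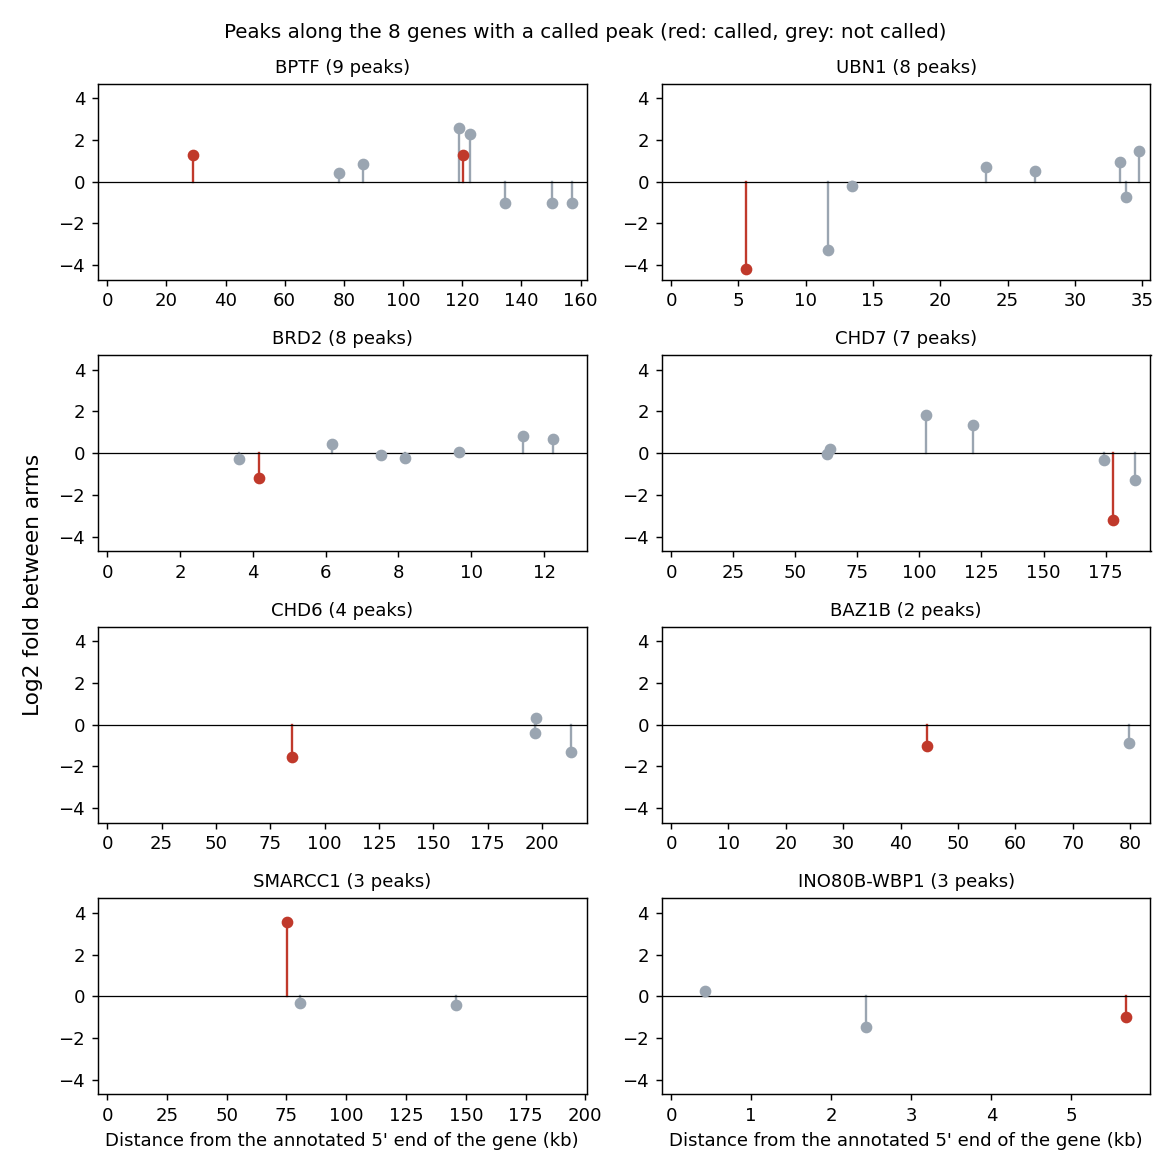
Log2 fold between the arms (y axis, authors' deposited values, numerator not stated) against the distance of the peak centre from the annotated 5′ end of the gene in kb (x axis), for the 8 genes with a called peak. Red points are called and grey points are not. The 6 positive folds of BPTF lie 5′ of its 3 negative folds, none of which was called. The most negative UBN1 folds, -4.19 and -3.29, lie nearest to the 5′ end of UBN1.

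The CBX genes, whose chromodomain proteins bind methylated histone H3, had no call. The heterochromatin protein genes CBX1 and CBX5 had 3 peaks, all positive and within a narrow range of 0.72 to 0.86 per the authors' deposited table, with no FDR under 0.231. No peak was listed for CBX3, the other gene of that group. Of the Polycomb genes, CBX2 had folds of 0.33 and 0.54, CBX6 of -0.02 and -0.41, CBX7 of 1.73 and CBX8 of -0.82 per the authors' deposited table, with no FDR under 0.158. The CBX7 peak is centred past the annotated 3′ end of CBX7 and shares bases with a peak of COX5BP7. The gene it belongs to is therefore uncertain.

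The ASXL genes, whose proteins activate the histone deubiquitinase BAP1, had 10 peaks with 8 positive folds and no call. ASXL1 had 8 peaks, of which 7 crowd between 75.22 and 80.45 kb from its 5′ end. Its folds were 0.78, 0.84, 0.05, 0.03, -0.68, 0.39, 1.39 and 1.55 from the 5′ to the 3′ end per the authors' deposited table, and no FDR was under 0.41. ASXL2 had 2 neighbouring peaks, at 0.06 and -0.40 per the authors' deposited table, the second enriched 47.5-fold. Of the remaining ARID genes, ARID4B, a partner of the SIN3 deacetylase complex, had 8 peaks, at -1.07, 1.12, 1.22, 1.05, 1.81, -2.0, 2.09 and 0.72 per the authors' deposited table. The last 2 of these lie past the annotated 3′ end of ARID4B and share bases with peaks of RBM34, so the gene they belong to is uncertain. ARID3A, ARID3B, ARID4A and ARID5A had only negative folds, from -1.53 to -0.35 over 6 peaks per the authors' deposited table, and ARID5B had folds of 0.21, 0.55 and -0.82.

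The PHF genes, named for the PHD finger, had 30 peaks on 14 genes and no call, where 8.23% of all peaks were called. PHF3, which binds RNA polymerase II, came nearest. Its folds of -0.68, 3.36, 1.29 and -0.67 from the 5′ to the 3′ end per the authors' deposited table had FDRs of 0.0589, 0.0851, 0.0661 and 0.213. The outer peaks of PHF3, at -0.68 and -0.67 per the authors' deposited table, were the strong ones, with a log10 p of -124 and -99.2. The fold of 3.36 was the largest uncalled positive fold of these genes per the authors' deposited table, and PHF20L1 had the next, at 3.18 (FDR 0.161). PHF8, a histone demethylase gene, stood at -0.38, 2.65 and 0.07, and PHF2, its relative, between -0.70 and 1.14, per the authors' deposited table. PHF20, of the NSL acetyltransferase complex, had folds of -1.40, -2.36, 1.02 and 0.68 per the authors' deposited table. PHF6, a gene mutated in T-cell leukaemia, had 1 peak at 0.10 (FDR 0.719) per the authors' deposited table. The strongest of all 218 peaks was on PHF5A, with a log10 p of -619 and a fold of 0.12 (FDR 0.566) per the authors' deposited table.

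Peaks on 1 gene mostly did not share a sign. Of the 49 genes with more than 1 peak, 41 had both positive and negative folds (83.7%), against 59.6% of 5812 such genes in the whole table. The 72 genes also carried more peaks each, 3.03 on average against 1.88 over all genes, and 18.1% of them had 5 or more, against 4.45%. Among genes with 3 or 4 peaks, 25 of 26 had both signs (96.2%), against 74.0% of all such genes. With 5 or more peaks, all 13 had both signs, against 91.9% of all such genes, and with 2 peaks 3 of 10 did, against 45.4%. The distance between the highest and the lowest log2 fold of a gene had a median of 0.47 with 2 peaks, against 0.91 in all such genes. With 3 or 4 peaks it was 1.89, against 1.74. In the 13 genes with 5 or more peaks it was 3.61, against 2.58 in all such genes. These shares are descriptions, with no test. Of the 218 peaks, 30 share exonic bases with a peak listed for another gene, so values there may not belong to the named gene alone.

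**Figure D3:**
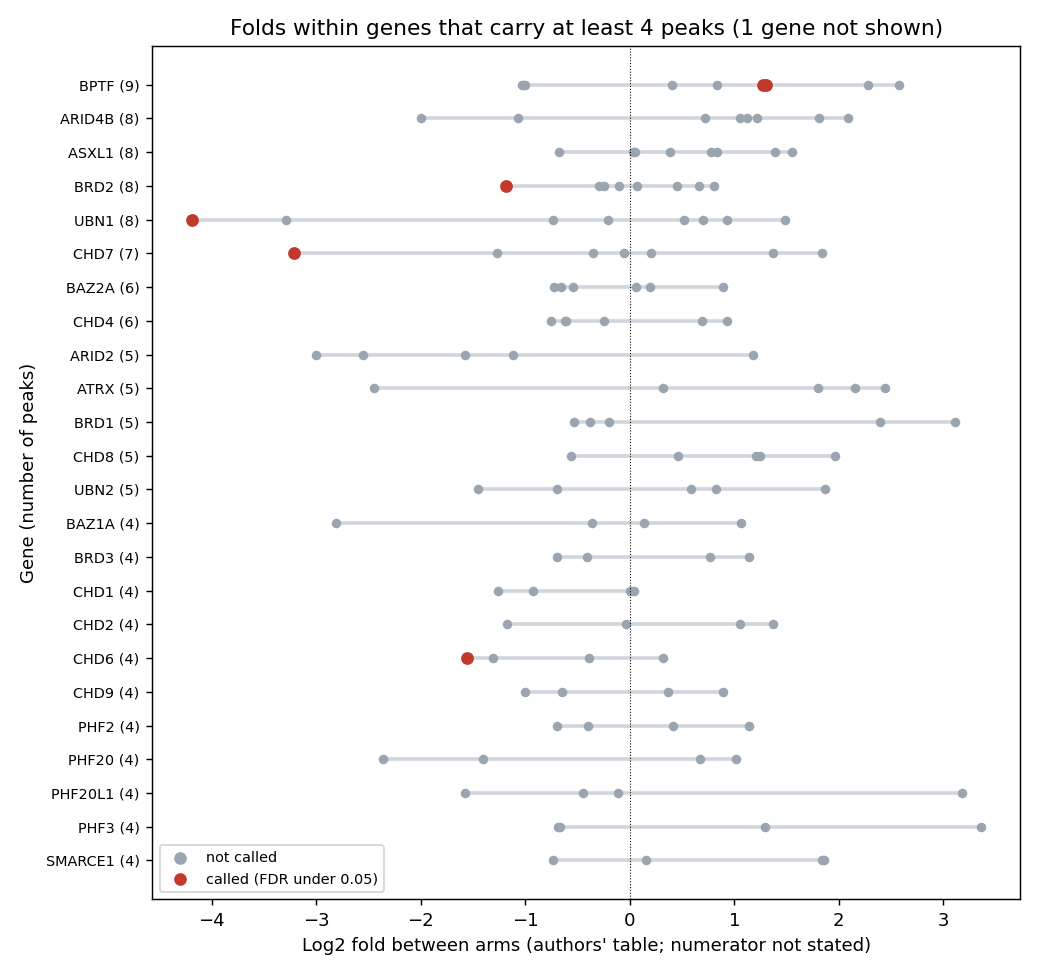
Log2 fold between the arms (x axis, authors' deposited values, numerator not stated) of each peak in genes with at least 4 peaks (rows, number of peaks in brackets; 1 gene is not shown). Grey lines join the lowest and highest fold of a gene and red points are called. Every row has folds on both sides of 0, from -4.19 to 1.48 in UBN1, and in CHD1 the highest is 0.04.

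Folds were larger in size on weaker peaks. Of the 218 peaks, 72 had a log10 p above -5, and their median size of the log2 fold, sign aside, was 1.02 per the authors' deposited table. It was 0.82 over the 94 peaks between -20 and -5 and 0.53 over the 52 peaks at -20 or less per the authors' deposited table. All peaks showed the same order per the authors' deposited table, with medians of 0.85, 0.74 and 0.46. The share called was highest among strong peaks: 5 of the 52 strongest peaks on these genes were called (9.62%), against 18.8% of all peaks of that strength. Of the 94 intermediate peaks 2 were called (2.13%, against 5.71%), and of the 72 weak ones 2 (2.78%, against 1.28%), those on SMARCC1 and UBN1. Enrichment of IP over input had a median of 9.58-fold on these genes (range 1.67 to 135), against 10.1-fold over all peaks, per the authors' deposited table.

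**Figure D4:**
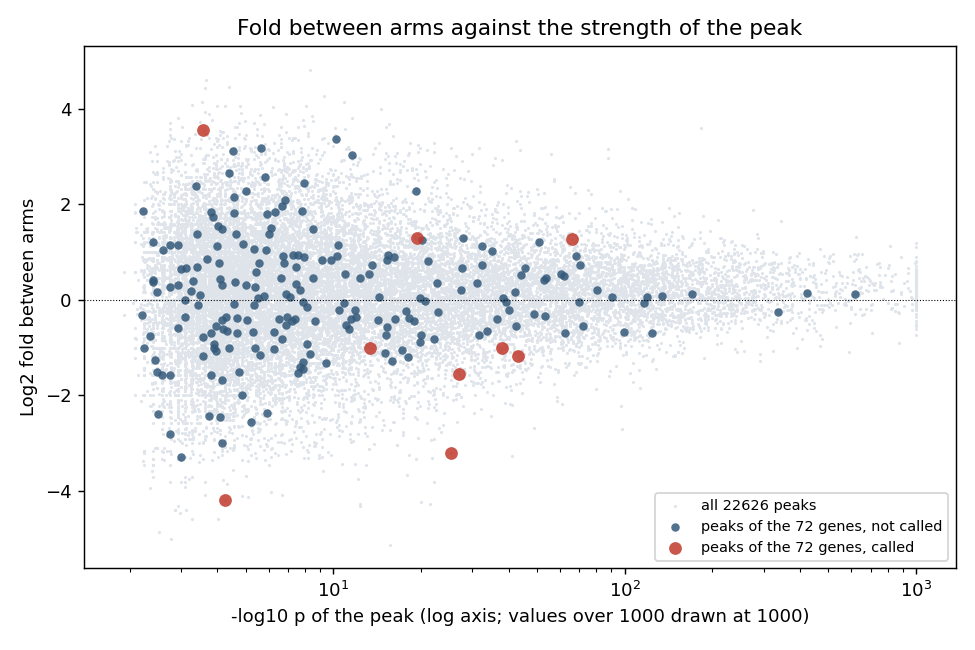
Log2 fold between the arms (y axis, authors' deposited values, numerator not stated) against the strength of the peak as -log10 p (x axis, log scale). Pale points are all 22626 peaks, blue points the uncalled peaks of the 72 genes and red points their 9 called peaks. Folds narrow towards strong peaks, and the called peaks of SMARCC1 (3.55) and UBN1 (-4.19) lie at the weak end.

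Peaks close to a gene end made up a smaller share on these genes than over all peaks. Of 211 peaks centred within the annotated gene, 21 were within 1000 bases of its 3′ end (9.95%, exact binomial 95% interval 6.27 to 14.8), against 22.1% of 20399 peaks. Within 1000 bases of the 5′ end lay 7 peaks (3.32%, interval 1.34 to 6.72), against 9.55%. The intervals treat peaks as independent, and peaks of a gene are not. Among genes with a single peak the share near the 3′ end was 19.0% (4 of 21 peaks), against 37.1% of all such peaks. With 2 peaks it was not lower, at 5 of 20 peaks, against 23.4% (1393 of 5955). With 3 or 4 peaks it was 8.05%, against 15.7%, and with 5 or more peaks it was 6.02%, against 8.18%. The 72 genes are long, with a median of 74.2 kb where a peak lay within the gene, against 28.8 kb for all such genes. The part of gene length and peak number in these shares was not tested. More than 1 exon block made up 40.4% of the peaks (interval 33.8 to 47.2), against 30.4% of all peaks.

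The number of calls moved with the rule, for these genes and for the whole table alike. At an FDR under 0.01, 5 of the 218 peaks were called (2.29%, against 4.95% of all peaks). With every deposited p-value doubled and adjusted again, since the kind of p is not stated and none exceeds 0.773, 6 were called (2.75%, against 6.36%), and CHD7, CHD6 and the 5′ BPTF peak were lost. At an unadjusted p under 0.05 there were 35 (16.1%, against 19.9%). With a log2 fold of at least 1 in size asked for as well, 8 were called (3.67%, against 4.68%), without INO80B-WBP1. Among the 146 peaks with a log10 p of -5 or less, adjusted again, 10 were called (6.85%, against 13.0%), without SMARCC1 and UBN1 and with the BRD2 peak at 0.81 and the PHF3 peaks at -0.68 and 1.29 per the authors' deposited table added. The 218 peaks fall into 213 loci when peaks that share exonic bases are merged across all genes, and each locus keeps the peak with the smallest p. In 202 of them the peak kept was on one of these genes, and 9 of those were called (4.46%, against 8.32% of all loci), while in the rest a peak of another gene was kept. With the median fold of all peaks (0.14) subtracted, the same 9 peaks kept their sign (4.13%, against 8.22%). Their fold smallest in size was -0.997, so this step could not remove any of the 9 calls. The BRD2 peak and the BPTF peak at 67945423 were the 2 called under all these rules.

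Other chromatin genes, a list of 91 genes outside the naming rule, had 173 peaks on 75 genes. The list holds further subunits of these complexes, histone chaperones, other SNF2-type ATPases and other bromodomain or PHD finger genes. Of the 173 peaks, 9 were called (5.20%, against 8.23% of all peaks). The calls were 4 positive and 5 negative, where 5.74% of all peaks were called positive and 2.49% negative. Positive folds made up 63.6% of the 173 peaks, against 55.3% of all peaks. The positive calls per the authors' deposited table were on HDAC2 (2.18, FDR 0.0158), a deacetylase, and GATAD2B (1.48, FDR 0.017), both of the NuRD complex, on RBBP4 (1.19, FDR 0.00417), a histone-binding subunit of NuRD and Polycomb complexes, and on EP400 (1.14, FDR 0.00676), a remodelling ATPase. The negative calls per the authors' deposited table were on SS18L1 (-3.22, FDR 0.012), of SWI/SNF, PHC3 (-2.03, FDR 0.0135), of Polycomb, RUVBL1 (-1.19, FDR 0.0363, or 0.0719 with the p doubled), an ATPase of the INO80 complex, SRCAP (-0.84, FDR 0.017), a remodelling ATPase, and VPS72 (-0.59, FDR 0.00112), a subunit of the SRCAP complex. The called HDAC2 peak was weak, with an enrichment of 1.83-fold and a log10 p of -2.76 per the authors' deposited table. The other HDAC2 peak, with a log10 p of -22.9, stood at 0.07. Some of these genes also had uncalled peaks of the opposite sign. Per the authors' deposited table these were on RBBP4 (-1.05), RUVBL1 (1.08), PHC3 (1.09 and 1.03), SRCAP (1.82 and 0.245) and VPS72 (0.47). Uncalled peaks of HDAC2, GATAD2B and EP400 and the remaining ones of SRCAP had the sign of the call. SS18L1 had no other peak.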

How the data were processed

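RNA of HCT116 cells with stable shALKBH5 or shNC was fragmented and an antibody against m6A pulled down the methylated fragments, with 2 IP and 2 input libraries per arm. The labels name more than 1 antibody or kit, and they do not say whether replicates are separate cultures. Per the submitters' processing notes, HOMER 4.9.1, BWA 0.7.12 and GRCh38 were used, with roles and order unstated. The peak caller was not given in the sources used here. Per the file headers, the deposited table gives for each peak a p-value, scores that are log10 of a p or FDR, a ratio (fold enrichment of IP over input) and a log2 fold between the arms with its own p and FDR. Values per library and depth are not analysed here.

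The authors' FDR was used as deposited and converted from its log10, with no test refitted. Peaks were matched to genes by the table's symbols, and gene bounds came from the RefSeq GRCh38.p14 gene table, where all 72 genes were found. Distances run from the middle exonic base, and coordinates are 1-based. Shares carry exact (Clopper-Pearson) 95% intervals, which cover counting error only. Named were all genes with a called peak, a fixed set of defining genes, the 5 genes with the most peaks, the 3 largest uncalled folds of each sign, the 3 uncalled peaks with the smallest FDR and the called peaks of the further chromatin list. Values of some genes are not reported here. Other genes are given in ranges or were named after their values were seen. The genes and lists were chosen with earlier results of these data known. Alternatives covered the threshold, the p, the fold size, peak strength, overlapping peaks and the distance to gene ends. Adjustment was by Benjamini-Hochberg, written in numpy 2.4.6 and checked on simulated data against statsmodels 0.14.6. Python 3.11.15, pandas 2.3.3 and scipy 1.17.1 were also used.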

Additional observations from a re-analysis of the deposited data

How the results depend on the processing

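No paired analysis was possible because the deposited table holds no values per library. For the same reason leaving out a library and a replicate block were not run, and depth and replicate error cannot be given. At an FDR under 0.01 there were 5 called peaks on 5 genes, 3 of them negative. At an unadjusted p under 0.05 there were 35 called peaks on 25 genes, 18 positive and 17 negative. Median enrichment was 10.9-fold over peaks with a log10 p of -5 or less. The share of peaks near the 3′ end was 5.21% within 500 bases and 18.0% within 2000 bases. The other 34 alternative values of the main counts, medians and shares stayed within 1.5 times the main count or within the interval of the value. Those with the median fold subtracted are among them and could not have changed. Of 25 alternatives for single called peaks, 18 kept the call and 7 lost it, with the same sign. They cover the doubled p, the FDR of 0.01 and the adjustment among peaks with a log10 p of -5 or less. SMARCC1 and UBN1, too weak to enter that adjustment, are not counted as lost there. The fold-size rule, which INO80B-WBP1 failed, is not counted either. Leaving out INO80B-WBP1, or peaks centred outside the annotated gene, was chosen after seeing the data.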
